A study of Sus scrofa with 9 samples.

Results

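Chemokines and their receptors were examined in the hMeDIP-seq data as 1 family of genes. A gene was a member if its symbol began with CCL, CXCL, CCR, CXCR or ACKR followed by a digit, or if it was CX3CL1, CX3CR1 or XCR1. By this rule 50 of the 18933 genes in the table that holds Obese-MSCs and Lean-MSCs were members, and 49 of the 18992 genes in the table of vitamin-C-treated and untreated Obese-MSCs. CXCL9 was analysed in the first table only. The 50 members were 29 ligands, 17 signalling receptors and 4 atypical receptors.

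Chemokines are small secreted proteins that guide the migration of leukocytes and other cells along gradients. They act on G-protein-coupled receptors, and most fall into the CC and CXC classes, named for the spacing of their first cysteines, with CX3CL1 and the XC ligands as small classes of their own. Atypical receptors of the ACKR group bind chemokines without the usual G-protein signal, and they take up, transport or present their ligands. In adipose tissue CCL2 and its receptor CCR2 are known for recruiting monocytes, and in MSCs CXCL12 and its receptors CXCR4 and ACKR3 are known for homing and for the niche of blood stem cells.

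The assay, hMeDIP-seq, captures DNA fragments carrying 5-hydroxymethylcytosine (5hmC), an oxidized form of methylated cytosine, with an antibody and sequences them. It was applied to mesenchymal stem/stromal cells (MSCs) from the subcutaneous abdominal fat of female domestic pigs, 3 months old when their diet began, with 3 libraries in each of 3 groups. Lean-MSCs (libraries 7, 8 and 9) came from pigs fed standard chow, and Obese-MSCs came from pigs fed a high-fat/high-fructose diet for 16 weeks. The Obese-MSCs were grown untreated (libraries 1, 2 and 3) or with vitamin-C (48 h in culture, at 50 µg/mL) (libraries 4, 5 and 6). The paper states that the growth medium itself held vitamin-C at a lower concentration. Cultures called untreated or without vitamin-C therefore lacked only the added vitamin-C. All cells had been expanded in vitro, so the values describe cultured cells and not fat tissue. Whether a treated and an untreated culture shared a pig is not given in the labels. The error given is therefore the spread over the 3 libraries of a group.

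The values are normalized counts of reads over the exons of each gene, so they measure 5hmC and not expression. No column of input DNA, sequenced without the capture, stands beside them, so background was not separated from 5hmC. Library totals were 494566 to 522269 in the first table, and 547242 to 593846 in the second. A single read was worth about 0.739 to 1.22 in the first table, and 0.821 to 1.33 in the second, so a value under about 5 rests on a few reads. Untreated Obese libraries are part of both tables, where the second normalization set the members' values 1.10 to 1.13 times higher (median per library), and groups were therefore compared within a table only. Among genes that define MSCs, NT5E, THY1 and ENG carried 5hmC in all libraries. Among genes that MSCs are meant to lack, CD34 and PTPRC carried 5hmC as well, and CD14 was at 0 in the Lean libraries and at 0.65 to 4.49 in the untreated Obese libraries. Over 17 genes of leukocytes the summed 5hmC was 345.4 to 420.6 in Obese and 367.1 to 436.9 in Lean libraries of the first table, and 344.4 to 470.8 with and 380.1 to 466.3 without vitamin-C in the second. CD3E, a T-cell gene, was lower in Obese-MSCs by the study's criteria (29.6 ± 7.00 against 49.5 ± 2.79 normalized counts, SD, n = 3 each). It was the only 1 of the 17 called, against 4.50% of all genes. The mean was higher in Obese-MSCs for 8 of the 17. Of other T-cell genes, CD3G (12.9 against 10.9) and CD4 (16.1 against 14.7) had higher means, and CD3D (2.50 against 3.42) and CD8A (34.5 against 36.6) lower ones. The part of other cells in the results was not tested.

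In the first table the members' mean 5hmC ranged from 0.682 to 91.7 normalized counts, with a median of 13.6, and the median member stood at the 52.3rd percentile of all genes. CXCR2, a receptor of neutrophil-attracting chemokines, had the most (91.7), followed by CCL2 (70.2) and CCL5 (64.9), ligands that attract monocytes and T cells. The least was found on CCL21 (0.682), a ligand that directs lymphocytes and dendritic cells to lymph nodes, on the skin and mucosal homing receptor CCR10 (0.984), and on CCL26 (1.61), a ligand of eosinophils. Per kilobase of gene span (RefSeq, introns included), CCL2 stood at 36.8 and CCL4 at 29.0 normalized counts, CXCR2 at 8.69, and CCL28 at 0.147. Exon lengths were not used here, so this order also reflects how much of each span is intron. On the scale of normalized counts, 29 members had a mean above 10, and CCL21, CCL26, CCL27, CCR10 and CXCL9 had 3 or less in both groups.

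The first comparison asks where 5hmC differed between MSCs of obese and lean pigs. The study's criteria take a gene as changed where a two-sided test with equal variances on its values reaches 0.05 and the ratio of means is 1.4 or more, or 0.7 or less. The criteria were applied anew here to the deposited values. For Obese-MSCs against Lean-MSCs the paper reports more changed genes, in each direction, than were called here. The cause of that gap was not tested. Shares of all genes called are therefore those of the calls made here, and not the paper's own. By these criteria 3 of 50 members (6%) were called, against 4.50% of all genes. ACKR1 was lower in Obese-MSCs, and CCL24 and CXCL10 were higher, against 2.43% and 2.07% of all genes called in those directions. The share among members was close to that among all genes. The libraries of the 2 groups did not overlap for 6 members (12%, against 11.8% of all genes), 2 of them higher and 4 lower in Obese-MSCs, against 5.70% and 6.06% of all genes. Besides the 3 called genes they included CCL22 and CXCR6, which were lower. With limma, 38 members had enough signal to be tested and 0 passed a Benjamini-Hochberg adjusted p of 0.05, as 0.00% of all 15146 genes did. At an unadjusted p of 0.05, limma called ACKR1 and CXCR6, against 6.81% of all genes. For a single gene the two-sided exact permutation test over 20 arrangements cannot go below p = 0.1.

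**Figure D1:**
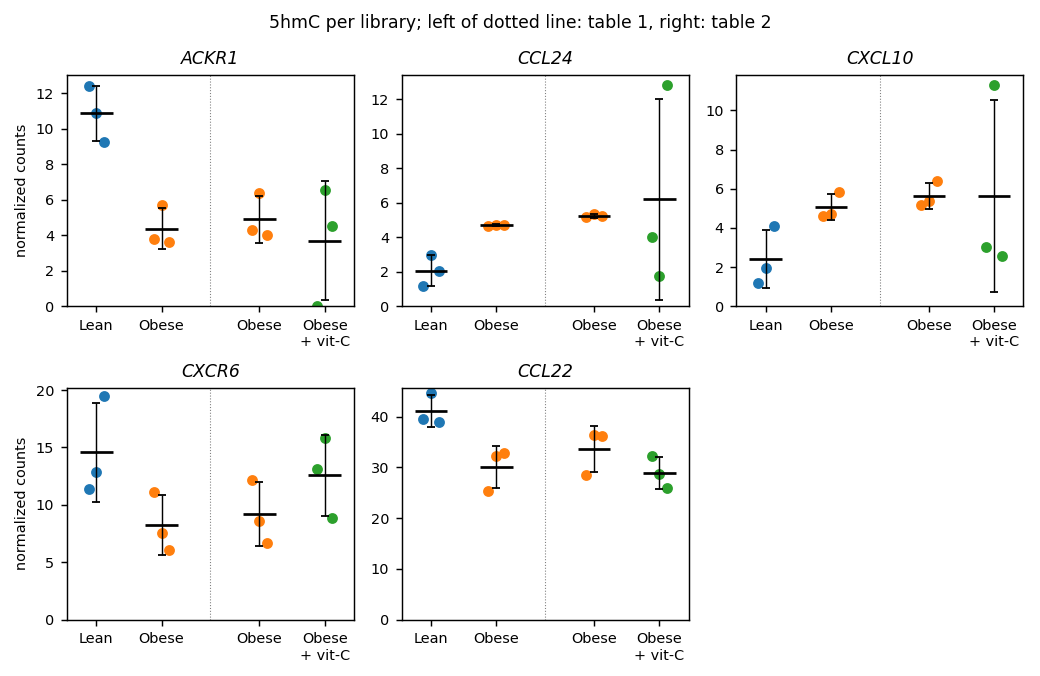
5hmC in normalized counts (vertical axes, starting at 0) in each library for 5 members whose Obese and Lean libraries did not overlap. Points are libraries, thick bars are group means and thin bars are SD (n = 3), with Lean and untreated Obese in the first table left of the dotted line and untreated and vitamin-C-treated (vit-C) Obese in the second table right of it. ACKR1 lies at 9.26 to 12.4 in Lean and at 3.60 to 5.72 in Obese libraries, and in the second table the points of treated and untreated libraries overlap for all 5 genes.

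ACKR1, the atypical receptor that carries inflammatory chemokines across venules and binds them on red cells, had 3.81, 5.72 and 3.60 normalized counts in Obese libraries, against 12.4, 10.9 and 9.26 in Lean libraries. Every Lean library was above every Obese library, by more than the range within either group. The means were 4.38 ± 1.16 and 10.9 ± 1.56 (SD, n = 3 each), a log2 ratio of -1.31, and it lay between -1.55 and -1.19 when each library was left out. By limma on the log2(value + 1) scale the difference was -1.15 ± 0.40 (SE), with an unadjusted p of 0.00895 and a Benjamini-Hochberg adjusted p of 0.668. The gene lies on chromosome 4 at 91224089 to 91225610 (Sscrofa11.1) and overlaps no other annotated gene. The values correspond to about 14 reads in the Obese and 31 in the Lean libraries together.

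CCL24, a ligand of the eosinophil receptor CCR3, had 4.64, 4.74 and 4.72 normalized counts in Obese libraries, against 1.19, 2.98 and 2.06 in Lean libraries. The Obese libraries were all higher, and they differed among themselves by 0.0969, which is less than 1 read is worth, so their small spread is not a measured precision. The means were 4.70 ± 0.0521 and 2.07 ± 0.897 (SD, n = 3 each), a log2 ratio of 1.18 with a range of 0.90 to 1.53 without each library. These values stand for about 15 and 6 reads in all. CCL24 was below the level at which limma was run, and without that filter its unadjusted p was 0.0673 and its Benjamini-Hochberg adjusted p 0.804. It spans 10347397 to 10361500 on chromosome 3, where a second annotated gene overlaps it.

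CXCL10, a ligand induced by interferon that attracts T cells through CXCR3, had 4.61, 4.73 and 5.84 normalized counts in Obese libraries, against 1.2, 1.98 and 4.09 in Lean libraries. The highest Lean library came close to the lowest Obese library without reaching it. The means were 5.06 ± 0.680 and 2.42 ± 1.49 (SD, n = 3 each), the log2 ratio was 1.06, and its range without each library was 0.74 to 1.67. With about 16 and 7 reads in all, its limma result without the filter was an unadjusted p of 0.0795 and a Benjamini-Hochberg adjusted p of 0.807. CXCL10 no longer met the criteria when unequal variances, log2 values or size factors were used, or without any 1 of the Obese libraries 1, 2 and 3 or the Lean libraries 7 and 8. Its span on chromosome 8, 71693641 to 71695948, overlaps that of ART3, and reads from exons the genes share cannot be told apart. The other interferon-induced ligands were not called, and CXCL11 had 4.80 ± 2.96 and 4.88 ± 0.30 and CXCL9 2.13 ± 2.26 and 2.43 ± 1.47 normalized counts in Obese and Lean libraries (SD, n = 3 each). The span of CXCL11 overlaps that of ART3 as well.

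Both ligands called were among the low genes of the family, and no ligand with a mean above 10 met the criteria. Of the 29 ligands, 13 had a higher and 16 a lower mean in Obese-MSCs, against 51.2% of all genes with a higher mean. Their summed 5hmC was 617.7 ± 78.1 normalized counts in Obese and 596.2 ± 36.7 in Lean libraries (SD, n = 3 each; exact permutation p = 0.6).

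CCL22, a ligand of CCR4 on regulatory T cells, had 25.4, 32.3 and 32.8 normalized counts in Obese libraries, against 39.6, 44.7 and 39.0 in Lean libraries. The groups did not overlap, and the log2 ratio was -0.45, which is a ratio of 0.734 and short of the study's limit. The limma adjusted p (Benjamini-Hochberg) was 0.786. CCL17, its neighbour on chromosome 6 and the other ligand of CCR4, had 50.6, 69.4 and 21.9 against 55.5, 45.7 and 80.0 normalized counts, and these groups overlapped.

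Among the ligands of monocytes, CCL2 had 98.3, 50.1 and 52.2 normalized counts in Obese libraries, against 84.6, 83.4 and 52.5 in Lean libraries, a log2 ratio of -0.14. Obese library 1 stood above the other Obese libraries, Lean library 9 stood below the other Lean libraries, and the groups overlapped. CCL8, a relative of CCL2 that also binds CCR2, had 31.1 ± 5.03 and 25.2 ± 8.82 normalized counts (SD, n = 3 each), and CCL5 had 69.4 ± 12.2 and 60.5 ± 9.66. CCL1, the ligand of CCR8, had 80.3, 58.7 and 75.2 against 37.6, 41.7 and 72.8, a log2 ratio of 0.49. Only Lean library 9 brought the groups of CCL1 to overlap, and without it CCL1 met the study's criteria for high 5hmC, with a log2 ratio of 0.85. Its limma adjusted p (Benjamini-Hochberg) with all libraries was 0.743.

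The CC ligands CCL1, CCL2, CCL4, CCL5, CCL8, CCL11, CCL14, CCL16 and CCL3L1 lie together on chromosome 12. Their sum was 377.4, 283.3 and 256.0 normalized counts in Obese libraries, against 274.0, 274.0 and 288.5 in Lean libraries, and the groups overlapped (exact permutation p = 0.8). Obese library 1 was the high library here, and the Lean libraries lay close together. CCL3L1 may belong to a group of near-identical gene copies, whose reads counting may divide. Such copies were not examined in the pig genome, and its values are uncertain.

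Among the other inflammatory CC ligands, CCL20, the ligand of CCR6, had 19.2 ± 6.25 and 15.1 ± 8.43 normalized counts in Obese and Lean libraries, and the eosinophil ligand CCL11 had 12.6 ± 2.34 and 14.2 ± 4.06 (SD, n = 3 each). CCL14 and CCL16 stayed at 6.13 or less and CCL26 at 2.41 or less in every library. Of the ligands with homeostatic roles, CCL19, which shares CCR7 with CCL21, had 32.8, 42.8 and 13.6 against 23.7, 27.8 and 12.4 normalized counts, a log2 ratio of 0.48 with overlapping groups. CCL25, the ligand of CCR9, had 9.85, 1.84 and 2.52 against 5.68, 5.96 and 6.16. CCL25 met the criteria for low 5hmC only when Obese library 1 was left out. CCL21, CCL27 and CCL28 stayed at 4.97 or less in every library. CX3CL1, the membrane-bound ligand known as fractalkine, had 8.71, 5.66 and 5.96 against 4.55, 3.97 and 6.15 normalized counts, a log2 ratio of 0.47, and its groups overlapped.

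Among CXC ligands the neutrophil attractant CXCL8 varied widely between Obese libraries, at 42.3, 97.1 and 22.0 normalized counts, and was at 50.9, 40.7 and 67.7 in the Lean libraries. Its means were 53.8 ± 38.9 and 53.1 ± 13.6 (SD, n = 3 each), and CXCL2, of the same function, had 7.81 ± 0.712 and 7.62 ± 2.80. CXCL12, the homing ligand, had 10.7, 7.50 and 19.6 against 10.2, 10.9 and 13.3 normalized counts, a log2 ratio of 0.13. CXCL13, which attracts B cells, had 3.78, 1.84 and 9.08 against 3.39, 5.97 and 0.0188. CXCL13 had the highest log2 ratio, 0.65, among members with a mean above 3 in both groups, yet its groups overlapped over most of their range. CXCL14 had 49.7 ± 25.7 and 50.8 ± 25.9 and CXCL16, the ligand of CXCR6, 21.5 ± 2.86 and 22.7 ± 2.90 normalized counts (SD, n = 3 each).

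**Figure D2:**
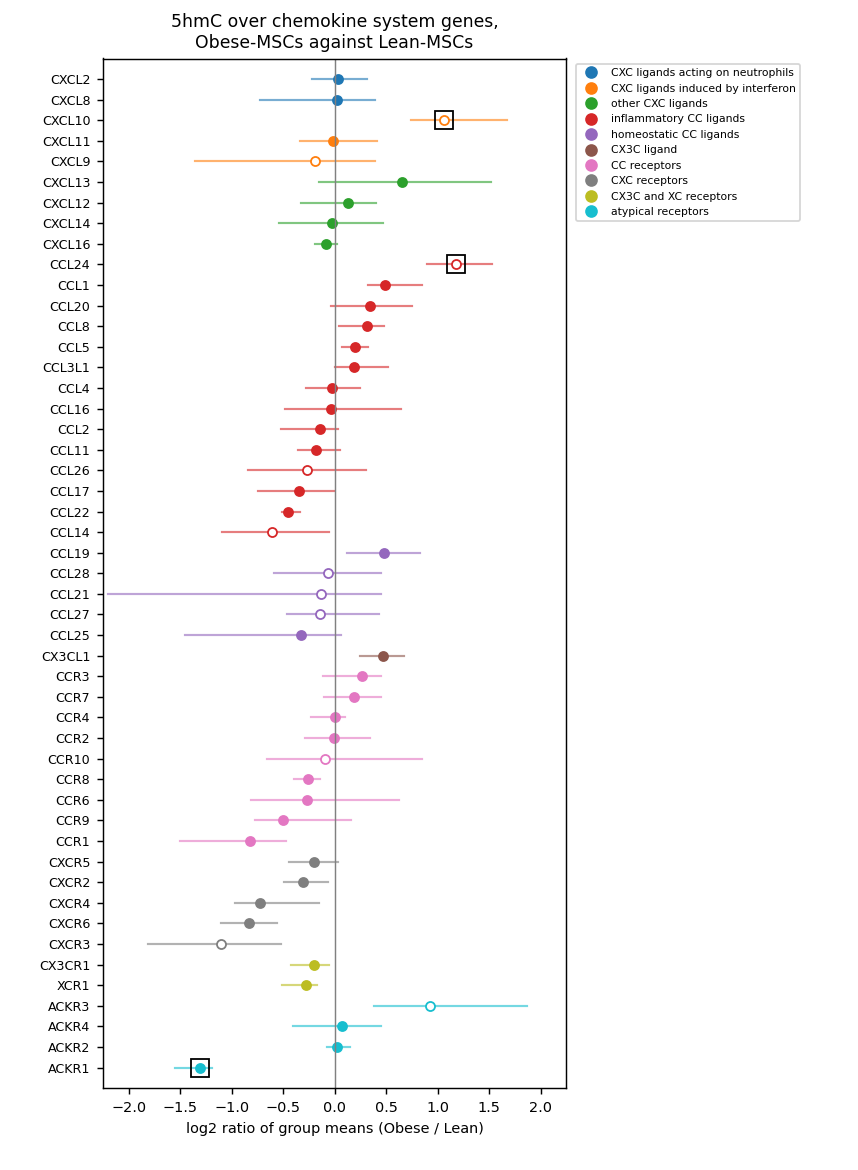
Log2 ratio of group means, Obese-MSCs over Lean-MSCs (horizontal axis), for 49 members grouped by role (colour). A point is the ratio over 3 libraries against 3, an open point marks a group mean of 3 normalized counts or less, a bar is the range over ratios that omit 1 library each, and a square marks the 3 members that met the study's criteria. The bar of CCL21, which has fewer than 3 normalized counts in each library, reaches -5.89 and runs beyond the axis, and the points of 14 of the 16 signalling receptors plotted lie at or left of 0.

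The signalling receptors had mostly lower means in Obese-MSCs. The mean was lower for 15 of 17 receptors and higher for CCR3 and CCR7, against 51.2% of all genes with a higher mean. However, CCR4 was at 45.6 in both groups when rounded. CCR2 (36.3 against 36.6) and CCR10 (0.953 against 1.02) differed by less than a single read is worth. Several of the receptors lie near each other on chromosome 13, and genes are not independent replicates. None of the 17 met the study's criteria, and CXCR6 was among those whose groups did not overlap. The count was 12 to 15 when each library was left out, and it was 12 without Lean library 7. Their summed 5hmC was 458.8, 358.9 and 410.0 normalized counts in Obese libraries, against 587.9, 425.9 and 466.4 in Lean libraries. Obese library 1 stood above a Lean library in this sum, so the groups overlapped, with means of 409.2 ± 49.9 and 493.4 ± 84.3 (SD, n = 3 each; exact permutation p = 0.2).

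**Figure D3:**
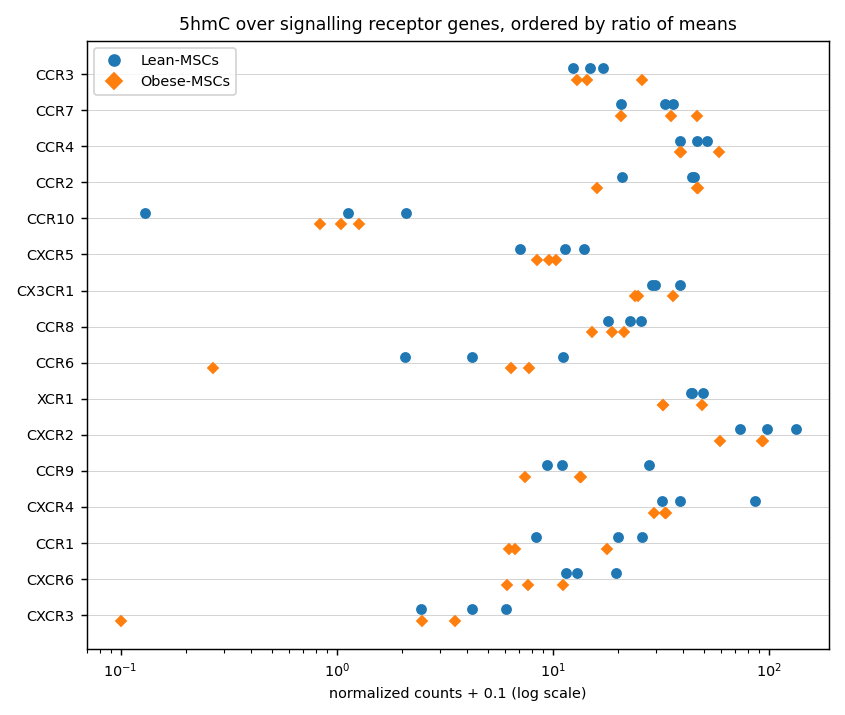
5hmC of 16 signalling receptors in each Lean and untreated Obese library, as normalized counts + 0.1 on a log axis, with genes ordered by their ratio of means. Circles are Lean and diamonds Obese libraries (n = 3 each). The values of the groups do not overlap for CXCR6, though the nearest are close (11.1 in Obese and 11.4 in Lean), and for CXCR4 a single Lean library at 86.2 stands apart from the other 5.

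CXCR6, the receptor of CXCL16 on T cells, had 11.1, 7.56 and 6.04 normalized counts in Obese libraries, against 11.4, 12.9 and 19.5 in Lean libraries. The highest Obese and the lowest Lean library were less than 1 read apart. The means were 8.24 ± 2.61 and 14.6 ± 4.28 (SD, n = 3 each), with a log2 ratio of -0.83 and a range of -1.10 to -0.56 without each library. By limma the unadjusted p was 0.0482 and the Benjamini-Hochberg adjusted p 0.731. The gene, on chromosome 13 at 29095900 to 29100666, overlaps the span of FYCO1.

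CCR1, CCR2, CCR3, CCR9 and XCR1 lie near CXCR6 on chromosome 13. CCR1 had 17.8, 6.57 and 6.14 normalized counts in Obese libraries, against 25.7, 19.9 and 8.29 in Lean libraries, a log2 ratio of -0.82, with overlap. CCR2, the receptor of CCL2, had 46.4, 15.9 and 46.7 against 45.0, 20.8 and 44.1. In both groups of CCR2 a single library, 2 and 8, was far below the others, and the means were 36.3 ± 17.7 and 36.6 ± 13.7 (SD, n = 3 each). CCR3 had 17.6 ± 7.05 and 14.6 ± 2.27, CCR9 11.3 ± 3.48 and 16.0 ± 10.2, and XCR1, a receptor of dendritic cells whose span overlaps that of CCR1, 37.9 ± 9.66 and 45.8 ± 3.32.

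CXCR4, the receptor of CXCL12, had 29.4, 33.2 and 32.9 normalized counts in Obese libraries, against 86.2, 38.7 and 31.9 in Lean libraries. Lean library 7 stood apart from the other 5 libraries. The log2 ratio was -0.72 with all libraries and -0.15 without that library. CXCR2 was also highest in Lean library 7, with 93.6, 59.6 and 92.7 against 133, 73.5 and 97.6. The log2 ratio of CXCR2 was -0.31, and its groups overlapped. CXCR5, a B-cell receptor, had 9.32 ± 0.929 and 10.7 ± 3.51 normalized counts, and CXCR3, the receptor of CXCL10, 1.93 ± 1.75 and 4.14 ± 1.80 (SD, n = 3 each).

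The remaining receptors had overlapping groups. CCR7, which leads lymphocytes to lymph nodes, had 46.5, 35.1 and 20.5 normalized counts against 20.6, 32.8 and 35.9, a log2 ratio of 0.19. CX3CR1, the receptor of CX3CL1 on monocytes and microglia, had 23.8, 24.6 and 36.1 against 29.5, 38.7 and 28.8, a log2 ratio of -0.20. CCR8 had 18.4 ± 3.05 and 22.0 ± 3.92, CCR6 4.72 ± 3.99 and 5.70 ± 4.71, and CCR10 0.953 ± 0.218 and 1.02 ± 0.979 normalized counts (SD, n = 3 each).

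Apart from ACKR1, the atypical receptors did not separate the groups. ACKR3, which binds CXCL12 and removes it, had 6.46, 1.85 and 3.58 normalized counts in Obese libraries, against 1.19, 0.989 and 4.08 in Lean libraries. These are a few reads each, and the log2 ratio of 0.93 ranged from 0.38 to 1.87 without each library. ACKR2, a scavenger of inflammatory CC ligands, had 43.8 ± 7.20 and 43.2 ± 3.89 and ACKR4, a scavenger of CCL19, CCL21 and CCL25, 5.14 ± 2.66 and 4.90 ± 2.12 normalized counts (SD, n = 3 each).

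The second comparison asks whether 5hmC differed between Obese-MSCs grown with and without added vitamin-C. The growth medium already held some vitamin-C, and the paper states that its effect might for that reason be underestimated. Of the 49 members, 0 met the study's criteria, against 1.92% of all genes (1.11% higher and 0.806% lower with vitamin-C). The treated and untreated libraries overlapped for all 49, so that 0 separated, against 5.91% of all genes (3.24% higher and 2.67% lower). These comparisons take the cultures as unpaired, since the labels match none of them. By limma 40 members were tested, of which 0 passed a Benjamini-Hochberg adjusted p of 0.05 and 0 an unadjusted p of 0.05, against 0.00% and 0.974% of all 15194 genes. The mean was higher with vitamin-C for 21 members and lower for 28, against 51.2% of all genes with a higher mean. The log2 ratio was within 0.5 in either direction for 42 of the 49, and its median was -0.06, against 0.01 over all genes. These tests with 3 libraries a group do not show that vitamin-C left the members as they were.

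**Figure D4:**
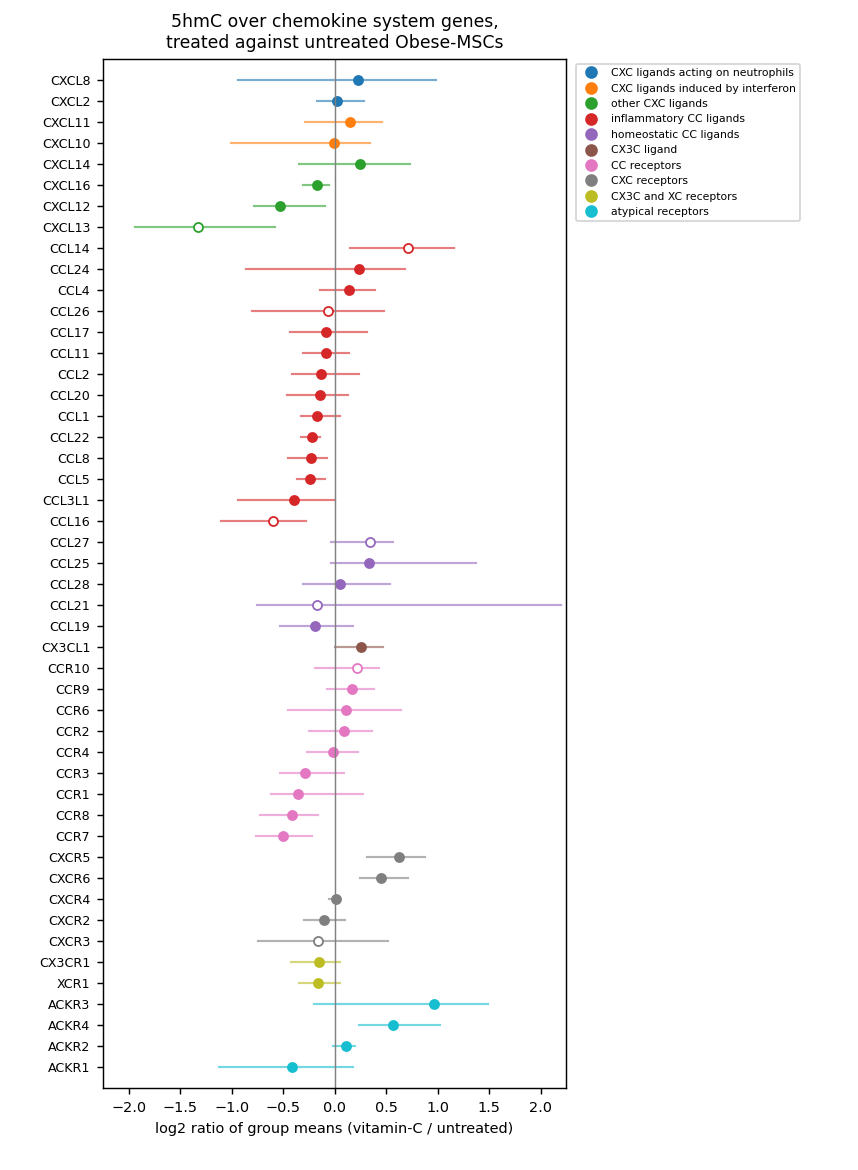
Log2 ratio of group means, vitamin-C-treated over untreated Obese-MSCs (horizontal axis), for 48 members grouped by role (colour). A point is the ratio over 3 libraries against 3, an open point marks a group mean of 3 normalized counts or less, and a bar is the range over ratios that omit 1 library each. No member met the study's criteria, the bar of CCL21 reaches 4.95 and runs beyond the axis, and the lowest point is CXCL13 at -1.33.

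The members that stood apart between Obese-MSCs and Lean-MSCs were compared here on the same untreated libraries, so the comparisons are not independent of each other. ACKR1 had 0.00466, 6.57 and 4.50 normalized counts with vitamin-C and 4.28, 6.40 and 4.00 without. Treated library 4 was near 0 and the other treated libraries lay among or just above the untreated ones. The log2 ratio of ACKR1 was -0.41, with a range of -1.12 to 0.18 without each library. CCL24 had 4.03, 1.75 and 12.8 against 5.17, 5.37 and 5.21, a log2 ratio of 0.24 that was -0.86 without treated library 6. CXCL10 had 3.02, 11.3 and 2.57 against 5.15, 5.37 and 6.41. The log2 ratio of CXCL10 was -0.01, and without treated library 5 it was -1.01 and met the criteria for low 5hmC. For both ligands 1 treated library was high and the other two were below all the untreated libraries.

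CXCR6 had 13.1, 15.8 and 8.83 normalized counts with vitamin-C and 12.2, 8.60 and 6.72 without, a log2 ratio of 0.45 (exact permutation p = 0.2). Treated library 6 lay within the untreated range. CCL22 had 32.2, 28.7 and 25.9 against 28.4, 36.4 and 36.1. The log2 ratio of CCL22 was -0.22, beside -0.45 for Obese-MSCs over Lean-MSCs.

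Among members with a mean above 3 in both groups, the highest log2 ratios belonged to ACKR3, CXCR5 and ACKR4 and the lowest to CXCL12, CCR7 and CCR8. ACKR3 had 5.04, 2.65 and 18.3 normalized counts with vitamin-C and 7.05, 2.21 and 3.97 without. Its log2 ratio was 0.97 and rested on treated library 6, without which it was -0.20. CXCR5 had 10.1, 15.7 and 22.6 against 11.3, 10.7 and 9.20, a log2 ratio of 0.63, and without treated library 4 it met the criteria for high 5hmC. ACKR4 had 12.1, 4.53 and 8.96 against 5.15, 3.28 and 8.73, with a log2 ratio of 0.57. In all 3 of these genes at least 1 treated library lay within the untreated range.

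CXCL12 had 10.1, 6.40 and 12.6 normalized counts with vitamin-C and 12, 8.68 and 21.4 without, a log2 ratio of -0.53. Its receptor CXCR4 had 34.2, 37.0 and 35.8 against 32.8, 37.5 and 36.2, a log2 ratio of 0.01. CCR7 had 22.1, 30.6 and 27.8 against 51.3, 39.7 and 22.7, a log2 ratio of -0.50, and met the criteria for low 5hmC only without untreated library 3. CCR8, a receptor of T cells, had 15.1, 21.4 and 9.68 against 23.4, 17.2 and 20.7, a log2 ratio of -0.41, which to these digits is also that of ACKR1, and its groups overlapped. CCL2 had 91.5, 58.2 and 53.5 against 108, 57.0 and 57.5 and CCL5 71.4, 74.1 and 50.8 against 90.0, 79.4 and 62.6, with log2 ratios of -0.13 and -0.24. CX3CL1 had 9.06 ± 2.69 and 7.55 ± 1.77 and CX3CR1 28.3 ± 9.08 and 31.4 ± 7.18 normalized counts (SD, n = 3 each).

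The signalling receptors were divided in this comparison. The mean was lower with vitamin-C for 10 of 17 and higher for 7, with a sum of 457.7, 429.8 and 411.1 normalized counts with and 508.4, 406.9 and 451.5 without vitamin-C. The count fell to 6 when untreated library 1 was left out, and the sums overlapped (exact permutation p = 0.7). Of the 28 ligands, 11 had a higher and 17 a lower mean, and the CC ligands of chromosome 12 summed to 379.2, 280.4 and 265.9 against 417.7, 320.8 and 282.1 (exact permutation p = 0.5).

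Several members varied more between libraries of 1 group than between groups. Between untreated libraries 1, 2 and 3, CXCL8 had 47.3, 109 and 24.4 normalized counts, and in treated libraries 4, 5 and 6 it had 46.3, 149 and 16.5. CCL17 had 56.2, 78.0 and 24.3 untreated and 56.3, 65.0 and 28.4 treated, and CCL19 had 36.4, 48.1 and 15.1 and then 37.2, 37.1 and 13.1. CCR2 had 51.2, 18.5 and 51.3 and then 59.3, 25.7 and 43.9. CXCL8 was highest in libraries 2 and 5, and its highest library had more than 4 times the lowest in each group. CCL17 and CCL19 were lowest in libraries 3 and 6, and CCR2 was lowest in libraries 2 and 5. CXCL14, a ligand of epithelia and stroma, had 35.1, 44.1 and 86.8 untreated and 42.3, 44.3 and 111 treated.

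**Figure D5:**
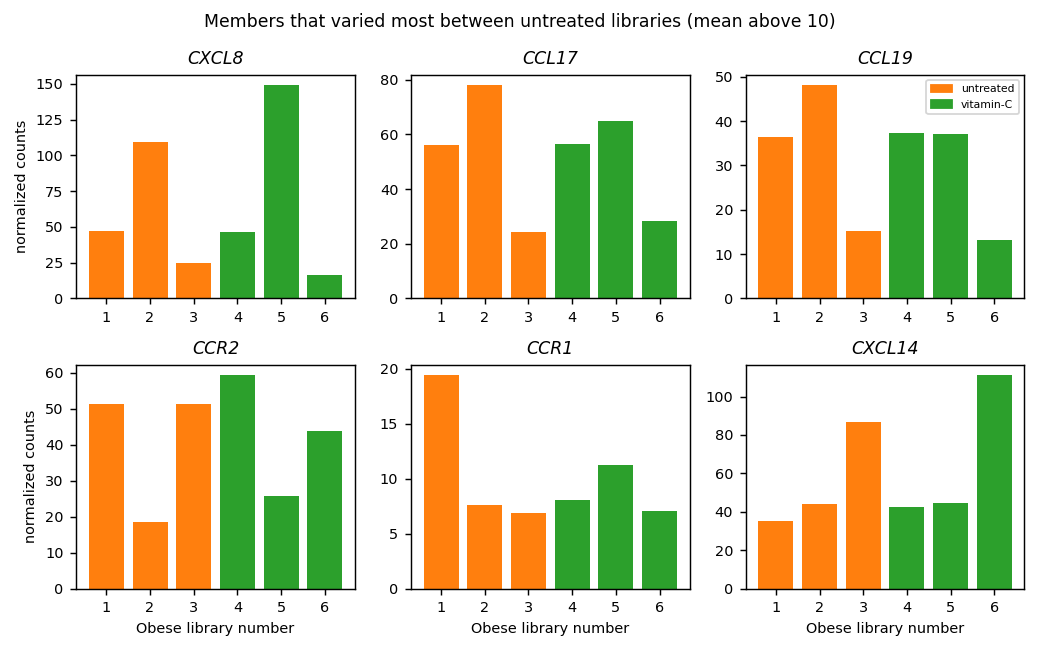
5hmC in normalized counts (vertical axes, starting at 0) in untreated (1, 2, 3) and vitamin-C-treated (4, 5, 6) Obese libraries of the second table, for the 6 members with a mean above 10 that varied most between untreated libraries. Each bar is 1 library. CXCL8 spans 24.4 to 109 untreated and 16.5 to 149 treated, and CXCL14 is highest in libraries 3 and 6.

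Genes of the pathway that the rule does not include were examined as fixed lists. Of 61 measured genes that carry the receptors' signal inside the cell (G proteins, arrestins, kinases, JAK and STAT proteins), 1 met the study's criteria for high 5hmC in Obese-MSCs and 0 for low, against 2.07% and 2.43% of all genes. This was BCAR1, an adaptor of focal adhesions and cell migration, with 31.8, 31.3 and 36.4 normalized counts in Obese and 16.0, 16.9 and 26.6 in Lean libraries. The Obese libraries were all higher, with a log2 ratio of 0.74 and a limma adjusted p (Benjamini-Hochberg) of 0.679. The groups also did not overlap for GRK5, RAC1 and STAT5B, which were higher, and for JAK3, which was lower in Obese-MSCs, which makes 5 of 61 against 11.8% of all genes. These names, and those of the next sentences, were taken after their values were seen. With vitamin-C 0 of the 61 met the criteria, against 1.92% of all genes, and 2 of them, among them GNAI3, were lower without overlap, against 2.67%.

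Of 16 measured genes of the wider chemokine system, such as CMTM genes and the chemerin receptor CMKLR1, 0 met the criteria in either comparison, against 4.50% and 1.92% of all genes. CMTM2, CMTM7, CMTM8 and CMKLR1 were lower in Obese-MSCs without overlap of the groups, and 0 were higher. This is 4 of 16, against 11.8% of all genes in either direction and 6.06% lower, and the direction was noted after the values were seen. CMTM2 had a mean under 3 normalized counts in both groups. CMTM8 was also low, at 3.43 ± 0.554 in Obese and 4.93 ± 1.53 in Lean libraries (SD, n = 3 each). The log2 ratio of CMTM7 was only -0.26. CMKLR1 had 20.9 ± 6.19 normalized counts in Obese and 33.8 ± 7.76 in Lean libraries (SD, n = 3 each), a log2 ratio of -0.69 with a limma adjusted p (Benjamini-Hochberg) of 0.704. In the second table CMKLR1 had 25.6 ± 5.37 with and 23.4 ± 6.51 without vitamin-C, and those libraries overlapped.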

How the data were processed

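hMeDIP-seq libraries of swine MSCs were analysed from 2 tables in which the authors deposited 5hmC signal per gene, 1 for Obese-MSCs and Lean-MSCs and 1 for treated and untreated Obese-MSCs. The authors aligned paired reads with Bowtie 2 (2.3.3.1) to susScr 11.1, removed duplicates with Picard (1.67), counted reads over exons with htseq-count (0.9.1) and processed the counts with edgeR (3.28.1). The deposited signal is fractional, scaled to near-equal totals, and whole reads were not recovered for nearly all genes. No test for counts was therefore run and no counting interval is given. Reads per gene were approximated as value over the worth of 1 read, taken as the median of the lowest main clump of values in a library. Some nonzero values lie far below that clump, such as 0.00466 for ACKR1 in treated library 4. Values are relative within a table, so a change of 5hmC in all genes would not be seen.

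Libraries were grouped by the labels, and 0 columns of libraries were left out. Each gene was tested by the study's criteria on the deposited values, and with limma 3.58.1 (R 4.3.3) on log2(value + 1), where the variance was allowed to follow the level. The 80% of genes with the highest means entered that fit, and p-values were adjusted over all of them (Benjamini-Hochberg, threshold 0.05). The pseudocount of 1 understates fold changes of low genes, and log2 ratios in the text are of group means without it. Single sums and genes used a two-sided exact permutation test. Python 3.11.15, numpy 2.4.6, pandas 2.3.3, scipy 1.17.1 and matplotlib 3.10.9 did the rest, and the procedure was run on simulated data. Changes were simulated only in genes with a mean above the median, which leaves out genes as low as ACKR1, CCL24 and CXCL10. Positions and gene spans are RefSeq's for Sscrofa11.1, by symbol.

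The members, lists and tests were chosen with earlier results of these data known. Members were named where they met the criteria, where groups did not overlap, as the 3 highest and 3 lowest log2 ratios with means above 3 in both groups, as the 3 highest and 3 lowest by mean, or for known roles in homing and inflammation (CXCL12, CXCR4, ACKR3, CCL2, CCR2, CXCL8, CCL5, CCR7, CX3CL1, CX3CR1). Other members are given in brief, and some genes are counted but not reported here. Non-members of the pathway lists were to be named where they met the criteria, and those named for groups that did not overlap were added after their values were seen. Alternatives were other thresholds, variance models, scales, filters, pseudocounts, size factors, quantile normalization and each library left out. Chosen after seeing the data were the counts of receptors with each library left out or with size factors, and a block in limma for every way to match the cultures with and without vitamin-C.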

Additional observations from a re-analysis of the deposited data

How the results depend on the processing

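The 3 members called between Obese-MSCs and Lean-MSCs became 5 when ratios of 1.2 and 0.83 were allowed, with CCL22 among those added, and 2 with p at 0.01, unequal variances, log2 values or size factors, where CXCL10 was lost each time. Without each library the count was 2 to 4, and ACKR1 and CCL24 were called in every alternative of these criteria. For CCL24 all of these calls use a spread in Obese libraries that is smaller than a single read is worth. By limma without the filter on low values, the unadjusted p of CCL24 was 0.0673. By limma 0 members passed the adjusted threshold under every alternative, with a smallest adjusted p (Benjamini-Hochberg) of 0.5704 to 0.9612. The main fit had 2 (ACKR1 and CXCR6) at an unadjusted p of 0.05. Alternatives had from 0, in the upper 50% of genes by mean, which leaves out both, to 4. CXCR6 was also lost with quantile normalization, without the filter on low values, and without Obese library 2 or 3 or Lean library 8 or 9. The count of receptors with a lower mean in Obese-MSCs was 12 to 15 without each library and 15 with size factors.

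With vitamin-C, 0 members were called under every alternative that kept all libraries, and 0 to 1 without each library, which was CXCR5 without treated library 4, CXCL10 without treated library 5, CCL25 without untreated library 1 and CCR7 without untreated library 3. By limma 0 members passed throughout. The count of receptors with a lower mean was 9 with size factors and 6 to 11 without each library. The cause of these changes was not tested. Size factors and a pseudocount of 1 on both means moved none of the 48 log2 ratios of named members by more than the spread between libraries. Leaving out Lean library 7, 8 or 9, treated library 5 or 6, or untreated library 2 moved 2 ratios each time. Among them, CCL24 went from 1.18 to 1.53 without Lean library 8. CXCL10 went from 1.06 to 1.67 without Lean library 9, and CXCR4 from -0.72 to -0.15 without Lean library 7. The labels give treated and untreated cultures different replicate numbers, so they name no matching. The study describes Obese-MSCs grown on from the third passage with or without vitamin-C, and does not say which cultures shared a pig. With a block for each of the 6 possible matchings in limma, 0 members passed the adjusted p (Benjamini-Hochberg) and 0 an unadjusted p of 0.05, against 0.566% to 2.45% of all genes at the unadjusted threshold. The highest share came with treated libraries 4, 5 and 6 beside untreated 1, 2 and 3. The groups of the other comparison share no number either, and no paired analysis was possible because Obese and Lean cultures come from different pigs.

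Values under about 5 normalized counts rest on a few reads, and 3 libraries a group cannot go below an exact permutation p of 0.1.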

Other observations

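Treated and untreated cultures may come from the same pigs, but the labels do not pair them. Over the 49 members, the deviations of log2 values from their group means had a Pearson's r of 0.10 between treated library 4 and untreated library 1, 0.43 between 5 and 2, and 0.44 between 6 and 3. The other 6 combinations gave -0.42 to 0.05. Over the 15194 genes tested by limma, the same combinations gave 0.26, 0.34 and 0.15, and the others -0.22 to -0.03. These values are a description across genes, which are not independent replicates, and deviations from a mean of 3 libraries are negatively tied to each other by construction.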
